A study of Homo sapiens with 6 samples.

Results

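The entries described here are the mature miRNAs hsa-miR-122-5p, hsa-miR-122-3p, hsa-miR-3591-3p and hsa-miR-3591-5p. They were taken by exact name from the 6 deposited tables and make up 4 of the 2588 entries listed. The RNA came from exosomes, small vesicles shed into the medium, of HCT116, an established human colorectal carcinoma line. The siPRDX3 group (n = 3 libraries) had received an siRNA against PRDX3, a mitochondrial peroxiredoxin, and the siCTL group (n = 3 libraries) a control siRNA. Both groups were transfected by microporation for 40 h and then kept for 24 h in medium with serum depleted of nanoparticles before exosomes were isolated. All libraries came from 1 cell line. Since the labels do not state separate cultures within a group, the spread behind each p-value may be technical. The question of the study was how loss of PRDX3 alters the miRNAs of exosomes. miRNA tables hold no PRDX3 mRNA, so the knockdown itself was not measured.

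miR-122 is the dominant miRNA of hepatocytes, where its transcription depends on liver-enriched factors and it restrains many mRNAs, including those of lipid and cholesterol metabolism. It is also known as a host factor that hepatitis C virus needs for replication, and as a circulating marker of liver injury. One strand of its hairpin, miR-122-5p, is the guide that is loaded into Argonaute, and the opposite strand, miR-122-3p, is mostly discarded. miR-3591 is annotated on the other DNA strand across the same hairpin, so that its 3p arm lies over miR-122-5p and its 5p arm over miR-122-3p.

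In GENCODE v29 (GRCh38) the MIR122 hairpin occupies chr18:58451074-58451158 on the plus strand, inside the last exon of the non-coding host gene MIR122HG (exon at 58449309 to 58453766). MIR3591 occupies chr18:58451080-58451152 on the minus strand. The hairpin is shown 5′ to 3′ from RefSeq (GRCh38.p14), because all 4 entries lie within it. Capitals mark its mature arms, first miR-122-5p and then miR-122-3p.
MIR122: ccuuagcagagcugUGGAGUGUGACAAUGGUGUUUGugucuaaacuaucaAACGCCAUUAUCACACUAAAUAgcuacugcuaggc

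The mature sequences are printed to show how the sense and antisense entries mirror each other. Capitals mark the seed, bases 2 to 8, which is the part of a miRNA that pairs with its target mRNAs.
miR-122-5p: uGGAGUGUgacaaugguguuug
miR-3591-3p: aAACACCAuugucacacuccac
miR-122-3p: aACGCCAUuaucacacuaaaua
miR-3591-5p: uUUAGUGUgauaauggcguuuga

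All 4 entries matched the RefSeq table, and the seeds of all 4 differ. Of the other mature entries in that table, 0 carried any of these seeds. miR-122-5p (58451088 to 58451109) and miR-3591-3p (58451087 to 58451108) overlap by 21 bases and are exact reverse complements over all 21, which leaves 1 base of each outside the other. miR-122-3p (58451124 to 58451145) and miR-3591-5p (58451121 to 58451143) are reverse complements over 20 bases. Since the arms of a hairpin pair with each other, entries of the same orientation also resemble each other. miR-122-5p matched miR-3591-5p at 18 of 22 aligned bases, and miR-122-3p matched miR-3591-3p at 16 of 21. How the authors divided reads between such entries, or whether a read could be listed under both, is not given in the sources used here. Nor is it given whether strand was used in counting, so each of the 4 entries is uncertain by itself.

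**Figure D1:**
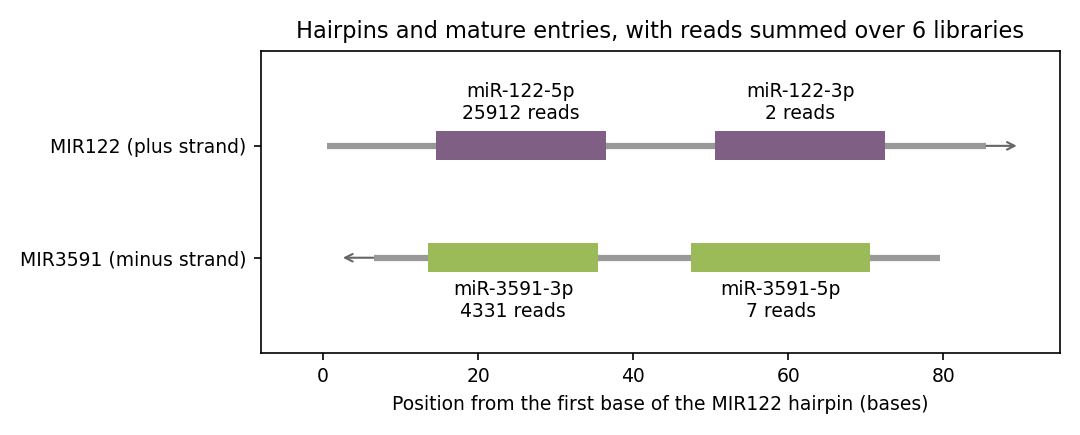
Positions of the hairpins and of the 4 mature entries, in bases from the first base of the MIR122 hairpin, with MIR122 on the plus strand above and MIR3591 on the minus strand below. Grey lines are hairpins, boxes are mature entries, arrows give the direction of transcription, and the printed numbers are reads summed over the 6 libraries. Reads lie on the left side of the hairpin, with 25912 under miR-122-5p and 4331 under miR-3591-3p, against 2 and 7 on the right side.

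The deposited values are log2(x + 1), where x lies on whole multiples of the worth of 1 read in each library, so reads could be recovered. Libraries held 230946, 96660 and 70678 miRNA reads in siPRDX3 1, 2 and 3, and 40146, 80950 and 124735 in siCTL 1, 2 and 3. Of the 80 entries with enough reads to be tested, 1, 8 and 1 had no read in the siPRDX3 libraries, against 30, 23 and 0 in siCTL 1, 2 and 3. siCTL 1 and siCTL 2 thus stand apart. The most abundant entry, miR-4451, took 27317, 46119 and 28236 reads in siPRDX3 1, 2 and 3. In siCTL 1, 2 and 3 it took 19837, 62237 and 20432. Intervals on shares are exact 95% Clopper-Pearson intervals, and they cover counting error only, since PCR copies were not told apart by molecular identifiers.

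miR-122-5p, the guide strand, was among the leading entries of the exosomal libraries. It had 5636, 9313 and 2371 reads in siPRDX3 1, 2 and 3, and 1874, 48 and 6670 reads in siCTL 1, 2 and 3. As a share of miRNA reads this was 2.44% (interval 2.38 to 2.504), 9.63% (9.45 to 9.82) and 3.35% (3.22 to 3.49) in siPRDX3. In siCTL it was 4.67% (4.46 to 4.88), 0.0593% (0.0437 to 0.0786) and 5.35% (5.22 to 5.47). siPRDX3 2 was the highest library and siCTL 2 the lowest, and the other siPRDX3 libraries lay below the other siCTL libraries, so the groups overlapped. Ordered by reads within a library, miR-122-5p held rank 12, 2 and 6 in siPRDX3 1, 2 and 3, and rank 5, 25 and 5 in siCTL 1, 2 and 3.

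The mean share of miR-122-5p was 5.14% ± 3.92 in siPRDX3 and 3.36% ± 2.88 in siCTL (SD, n = 3 each). The difference was 1.79 percentage points and smaller than the spread between libraries (two-sided exact permutation p = 0.6, adjusted p = 0.9 over a family of 2 measures). The smallest p that 3 against 3 libraries allow is 0.1. The difference was −0.46 percentage points without siPRDX3 2 and 0.136 without siCTL 2, so these libraries set its size and its sign. With miR-4451 left out of the totals the shares were 2.77%, 18.4% and 5.59% in siPRDX3 1, 2 and 3. In siCTL 1, 2 and 3 they were then 9.23%, 0.257% and 6.39%. The difference of means became 3.63 percentage points, and the groups still overlapped. On the deposited log2 scale the order from highest to lowest was 16.01 in siPRDX3 2, 15.70 in siCTL 3, 15.52 in siCTL 1, 14.03 in siPRDX3 1, 13.96 in siPRDX3 3 and 9.91 in siCTL 2. In bulk exosomal RNA, fewer vesicles that carry a miRNA and fewer copies per vesicle cannot be told apart.

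miR-3591-3p, the entry opposite miR-122-5p, was lower than miR-122-5p in every library. Its reads were 1399, 934 and 689 in siPRDX3 1, 2 and 3, and 102, 33 and 1174 in siCTL 1, 2 and 3. These are shares of 0.606% (interval 0.575 to 0.638), 0.966% (0.906 to 1.03) and 0.975% (0.904 to 1.05) in siPRDX3, and of 0.254% (0.207 to 0.308), 0.0408% (0.0281 to 0.0572) and 0.941% (0.888 to 0.996) in siCTL. As shares, the siPRDX3 libraries lay close together and siCTL 3 fell among them, while siCTL 1 and siCTL 2 were lower. On the deposited log2 scale siCTL 3 was the highest library, at 13.19, above 12.02, 12.69 and 12.18 in siPRDX3 1, 2 and 3. siCTL 1 and siCTL 2 stood at 11.32 and 9.37 there. The mean share was 0.849% ± 0.211 in siPRDX3 and 0.412% ± 0.471 in siCTL (SD, n = 3 each), while siCTL 3 alone, at 0.941%, lay above the siPRDX3 mean.

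Within siPRDX3 the deposited log2 level of miR-3591-3p had an SD of 0.35, and 5 of the 80 tested entries, itself included, had an SD this low there. The SD of miR-122-5p in siPRDX3 was 1.16, near the median of 1.43 over all tested entries. In siCTL the SDs were 1.91 for miR-3591-3p and 3.29 for miR-122-5p, with a median of 3.58 over all tested entries. Without siCTL 2 they were 1.33 for miR-3591-3p and 0.13 for miR-122-5p over the 2 siCTL libraries left. Between the highest and the lowest of the 6 libraries the share differed 162.5-fold for miR-122-5p and 23.9-fold for miR-3591-3p. These ranges were set by siCTL 2, and without it they were 3.95-fold for miR-122-5p and 3.84-fold for miR-3591-3p. Within siPRDX3 they were 3.95-fold for miR-122-5p and 1.61-fold for miR-3591-3p.

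The remaining entries were at the limit of detection. miR-122-3p, the passenger strand, had 0 reads in all siPRDX3 libraries and 1, 0 and 1 in siCTL 1, 2 and 3. miR-3591-5p had 2, 4 and 1 reads in siPRDX3 1, 2 and 3 and 0 in all siCTL libraries. A count of 0 allows up to 3 reads, which is a share of up to 0.00130% in siPRDX3 1, the largest library, and of up to 0.00747% in siCTL 1, the smallest. The groups of miR-3591-5p did not overlap in reads, but a single count, the 4 reads of siPRDX3 2, exceeded that limit, so no difference was detectable at this depth. Neither entry passed the filter on low values and neither was tested.

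miR-122-5p made up at least 99.9% of the reads of both miR-122 arms in each library, with 1 read of the 3p arm in siCTL 1 among 1875 and in siCTL 3 among 6671. In siCTL 2, with 48 such reads, a 3p share of up to 6.25% would have gone undetected. miR-3591-3p likewise took between 99.6% and 100% of the reads of both miR-3591 arms.

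**Figure D2:**
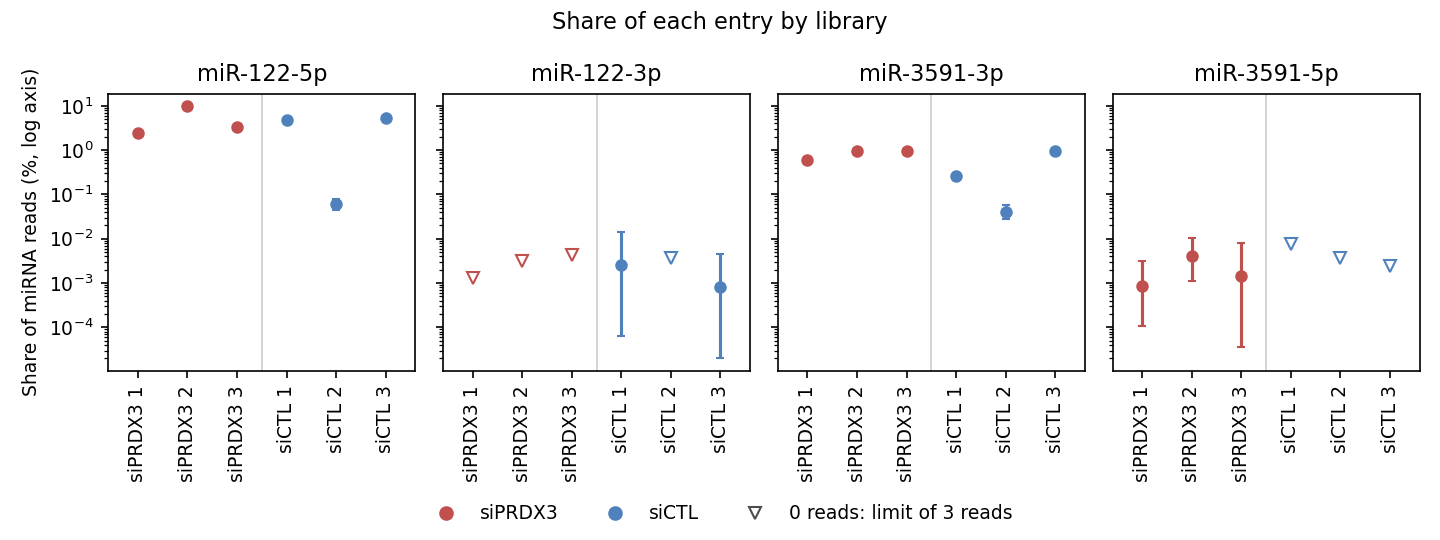
Share of miRNA reads (%, log axis) of each of the 4 entries in each library, siPRDX3 in red on the left and siCTL in blue on the right of each panel. Filled points have 95% Clopper-Pearson bars, and open triangles mark the share that 3 reads would make where the count was 0. The miR-122-5p shares run from 9.63% in siPRDX3 2 to 0.0593% in siCTL 2, and the miR-122-3p and miR-3591-5p shares reach at most 0.00414%.

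Across all entries, limma was fitted on the deposited log2 values of the 80 entries tested, which include miR-122-5p and miR-3591-3p. miR-122-5p had a mean log2 level of 14.67 ± 1.16 in siPRDX3 and 13.71 ± 3.29 in siCTL (SD, n = 3 each), which is 0.96 higher in siPRDX3 on the log2 scale, with an SE of 1.66 (limma, adjusted p = 0.737). Its 95% interval ran from −2.94 to 4.86. miR-3591-3p stood at 12.30 ± 0.35 in siPRDX3 and 11.29 ± 1.91 in siCTL, which is 1.004 higher in siPRDX3 with an SE of 1.34 (limma, adjusted p = 0.657), and its interval ran from −2.14 to 4.15. Neither passed, so 0 of the 2 tested entries were called, beside 0 of 80 (0%) over all tested entries at an adjusted p of 0.05 and 6 of 80 (7.5%) at an unadjusted p of 0.05. The groups did not overlap on the deposited scale for 16.2% of the tested entries, and as shares of reads for 15% of them. They overlapped for miR-122-5p and for miR-3591-3p on both measures.

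The intervals are wide, and they include changes of several-fold in either direction. Over all 80 entries the median fold change was 1.72 on the log2 scale, and relative to it miR-122-5p stood at −0.76 and miR-3591-3p at −0.72. This position depended on the setting. It was 1.23 for miR-122-5p and 0.38 for miR-3591-3p without siCTL 1, 0.79 and 0.83 in that order with no filter, and 0.01 and −0.01 by limma-voom. Scaling by library totals in place of the authors' scaling moved the median to 2.57 and the fold changes to 1.91 for miR-122-5p and 1.96 for miR-3591-3p. The direction of miR-122-5p rested on siCTL 2, without which its fold change was −0.94 (limma, adjusted p = 0.76, against 0.405 to 0.929 over its other settings). Without siCTL 2 that of miR-3591-3p was 0.04. With both siCTL 1 and siCTL 2 left out, so that siCTL 3 is assumed to vary like siPRDX3, the fold change was −1.03 for miR-122-5p and −0.90 for miR-3591-3p.

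**Figure D3:**
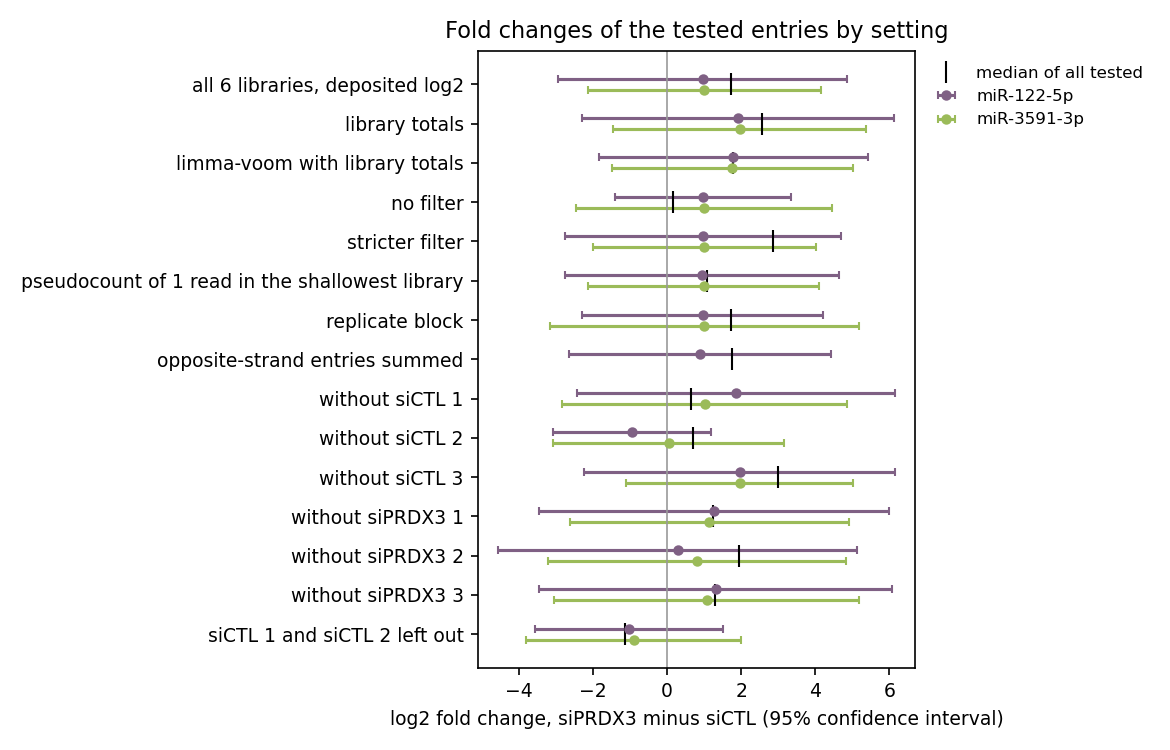
Log2 fold change (siPRDX3 minus siCTL) of miR-122-5p and miR-3591-3p from limma, 1 line per setting, with 95% confidence intervals. The black ticks give the median over all entries tested in that setting. Every interval includes 0. The point of miR-122-5p lies at 0.96 with all 6 libraries and at −0.94 without siCTL 2.

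The low value in siCTL 2 was shared with other miRNAs. The share of miR-122-5p there was 1.27% of its median share in the other 5 libraries, and that of miR-3591-3p was 4.33%. Over all 80 tested entries the median of this measure was 9.19%, and 30 entries, miR-122-5p included, were as low or lower. Taken against the lowest of the other 5 libraries, 6 tested entries fell below 10% in siCTL 2. These were miR-122-5p with 48 reads, and miR-10a-5p, miR-10b-5p, let-7g-5p, miR-128-3p and miR-3158-3p with 0 reads each. They are named for this value, so it is a description. Testing required enough reads in at least 3 libraries, which favours entries absent from siCTL 2 over entries found mainly there.

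The tested entries most alike to miR-122-5p over the 6 libraries, by Pearson's r of deposited log2 levels, were miR-10a-5p (0.93), miR-10b-5p (0.82), miR-92a-3p (0.81), miR-3158-3p (0.78) and miR-128-3p (0.73), out of 78 compared. The antisense miR-3591-3p correlated with miR-122-5p at 0.88. Spearman's rho was 0.66, 0.60, 0.49, 0.71 and 0.14 for the 5 named entries in that order, and 0.71 for miR-3591-3p. All of these levels come from the same libraries and share their scaling. The likeness rested on siCTL 2. Without it r was 0.35 for miR-10a-5p, 0.34 for miR-10b-5p, 0.30 for miR-92a-3p and 0.33 for miR-3591-3p, and −0.12 and −0.59 for miR-3158-3p and miR-128-3p. With siPRDX3 2 left out as well, r was 0.71 for miR-10a-5p, 0.81 for miR-10b-5p, 0.41 for miR-92a-3p and 0.19 for miR-3591-3p, and −0.45 and −0.66 for miR-3158-3p and miR-128-3p, over 4 libraries.

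The division of reads between the sense entry and the antisense entry differed from library to library. Of the reads under miR-122-5p and miR-3591-3p together, miR-122-5p took 80.1% of 7035 (interval 79.2 to 81.04), 90.9% of 10247 (90.3 to 91.4) and 77.5% of 3060 (75.96 to 78.95) in siPRDX3 1, 2 and 3. It took 94.8% of 1976 (93.8 to 95.8), 59.3% of 81 (47.8 to 70.1) and 85.03% of 7844 (84.2 to 85.8) in siCTL 1, 2 and 3. The 6 intervals did not overlap one another. The libraries thus differed by more than counting error, provided that reads were independent and each was listed under a single entry, which is not known. siCTL 1 was the highest and siCTL 2 the lowest, with the 3 siPRDX3 libraries and siCTL 3 between them.

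Between the groups this division did not differ beyond its spread. miR-122-5p took 82.8% ± 7.10 of the reads of the pair in siPRDX3 and 79.7% ± 18.4 in siCTL (SD, n = 3 each), a difference of 3.12 percentage points (two-sided exact permutation p = 0.9, adjusted p = 0.9 over the family of 2 measures). Without siCTL 2 the difference was −7.11 and without siPRDX3 2 it was −0.91. With both arms of each hairpin counted it was 82.8% ± 7.09 in siPRDX3 and 79.7% ± 18.4 in siCTL.

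Other hairpins overlap on opposite strands as well, and their listed reads can be set beside those of the miR-122 pair. Whether a read could be listed under both entries of a pair is not known, so each division is one of listed counts. RefSeq positions gave 42 pairs of listed mature entries that overlap by at least 10 bases on opposite strands, of which 14 had reads and 7 had at least 100. The pair with the most reads was miR-423-5p and miR-3184-3p on chromosome 17, which cover the same 23 bases. Of its reads miR-423-5p took 49.6%, 50.2% and 48.4% in siPRDX3 1, 2 and 3, and 56.3%, 51.2% and 50.6% in siCTL 1, 2 and 3. In siCTL 1 the pair had only 32 reads, and in the other 5 libraries the share of miR-423-5p lay near an even division.

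The share of the plus-strand entry was higher for miR-122-5p than for miR-423-5p in 6 of 6 libraries, by 30.2 ± 11.7 percentage points (mean ± SD, n = 6 libraries). The comparison was chosen after the values were seen, so it is a description with no test. The difference was smallest in siCTL 2, at 8.05 percentage points, and without that library it was 34.7 ± 5.00 (5 of 5 libraries).

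The other pairs had fewer reads. miR-203b-5p and miR-203a-3p, which like the miR-122 pair are shifted by 1 base, were divided 149 to 140, nearly all of it in siCTL 2, where the first took 51.6%. miR-103a-3p took 54.7% of the reads it shared with miR-103b, nearly all of them in siPRDX3 1, where it took 55.1% of 256. miR-423-3p took 54.9% to 67.2% of the reads it shared with miR-3184-5p in the 3 libraries with at least 100 reads of that pair. At the other end, miR-550a-5p took 98.9% of the 359 reads it shared with miR-550b-3p, all of them in siCTL 2. miR-3158-3p took 98.4% against miR-3158-5p. By name these are the arms of the same miRNA, so choice of arm and division by strand cannot be told apart in that pair. By reads summed over all libraries, the miR-122 pair, with 85.7% under miR-122-5p, lay between the even and the one-sided pairs. The libraries behind these sums differ from pair to pair. In siCTL 2, which held the miR-550 pair, the miR-122 pair stood at 59.3% of 81 reads.

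**Figure D4:**
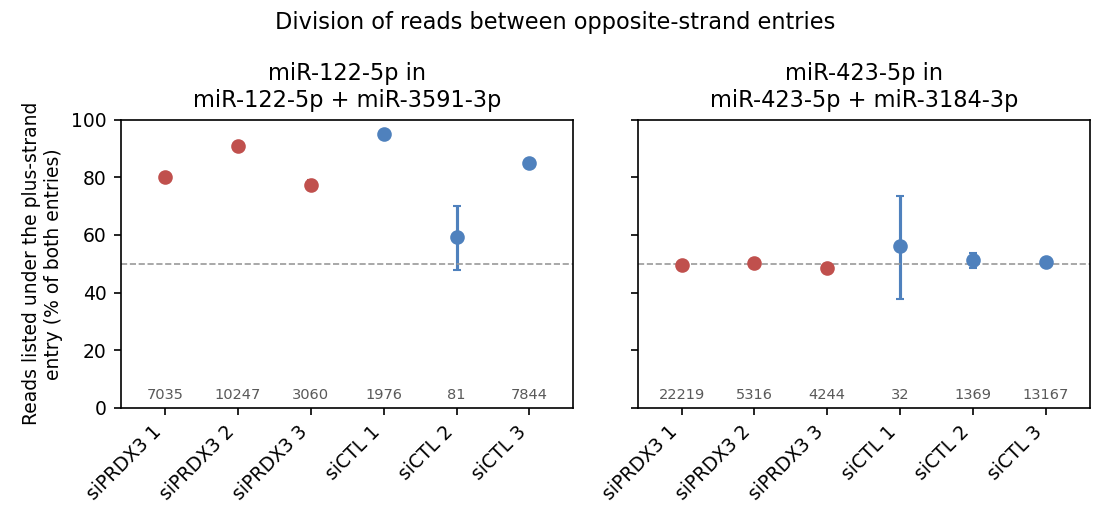
Percent of the reads of an opposite-strand pair that were listed under its plus-strand entry, for miR-122-5p with miR-3591-3p (left) and miR-423-5p with miR-3184-3p (right), siPRDX3 in red and siCTL in blue. Bars are 95% Clopper-Pearson intervals, the numbers along the bottom are the reads of both entries, and the dashed line marks 50%. The miR-122 pair runs from 59.3% to 94.8%, and the miR-423 pair stays between 48.4% and 56.3%.

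Of 8 further liver-enriched miRNAs, 7 had reads and 2 had enough to be tested, with 0 passing. Together they made up 0.719% to 1.41% of reads in siPRDX3 and 0.404% to 4.54% in siCTL, most of it from miR-148a-3p (6818 reads over all libraries) and miR-483-5p (1467 reads). miR-802 had 0 of 644115 reads, miR-885-5p had 2 and miR-885-3p had 2 over all libraries, miR-194-5p had 3 and miR-483-3p had 2. miR-192-5p, which is as much a miRNA of the intestinal epithelium, had 220 of its 238 reads in siCTL 3. Of the 4 entries listed as liver markers, miR-122-5p had reads in quantity, and miR-122-3p, miR-885-5p and miR-802 had 2, 2 and 0.

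The tested members of that list are expressed in many tissues. miR-148a-3p, abundant in liver and in gut, had 2985, 908 and 432 reads in siPRDX3 1, 2 and 3, and 699, 323 and 1471 in siCTL 1, 2 and 3 (−0.999 on the log2 scale, adjusted p = 0.59 by limma). miR-483-5p, encoded in an intron of IGF2, had 253, 16 and 74 reads in siPRDX3 1, 2 and 3, and 1121, 2 and 1 in siCTL 1, 2 and 3 (0.69 on the log2 scale, adjusted p = 0.875 by limma). In siCTL 2 miR-148a-3p kept 323 reads where miR-122-5p had 48, and in siCTL 1 miR-483-5p was at its highest. The median fold change of these 2 was −0.16, against 1.72 over all tested entries.

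Markers of other sources were set beside miR-122-5p. Erythroid miRNAs, which mark red cells and are abundant in serum, summed to 1.09% to 3.54% of reads in siPRDX3 and 4.15% to 5.58% in siCTL, with 4 of 5 members detected and miR-144-3p at 0. Leukocyte and platelet miRNAs reached at most 0.406% in siPRDX3 and 0.0168% in siCTL, with miR-223-3p, miR-142-3p and miR-150-5p at 0. The 0.406% was 287 reads of miR-146a-5p in siPRDX3 3, an entry with no reads in any other library. Striated muscle miRNAs reached at most 0.00130% in siPRDX3 and 0.154% in siCTL, with 5 of 7 members at 0. The 0.154% was 62 reads of miR-206 in siCTL 1, whose only other reads were 3 in siPRDX3 1. Colon epithelial miRNAs, the tissue named in the labels, ran from 0.0114% to 0.304% in siPRDX3 and from 0.00494% to 1.16% in siCTL, with 7 of 8 detected and miR-429 at 0. In each of the 6 libraries the share of miR-122-5p exceeded the sum of the colon epithelial list.

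The erythroid list and miR-122-5p ran apart in siCTL 2. There miR-486-5p, the leading erythroid miRNA, kept 2262 reads, 2.79% of the library, where miR-122-5p had 48. Per read of miR-486-5p there were 3.24, 4.94 and 2.28 reads of miR-122-5p in siPRDX3 1, 2 and 3, and 1.07, 0.0212 and 2.02 in siCTL 1, 2 and 3. The groups did not overlap on this measure, with the lowest siPRDX3 library just above siCTL 3. miR-486-5p itself made up 0.753%, 1.95% and 1.47% of reads in siPRDX3 1, 2 and 3. In siCTL 1, 2 and 3 it made up 4.36%, 2.79% and 2.65%. Its own groups thus did not overlap, whereas the shares of miR-122-5p did, so the ratio by itself shows no rise of miR-122-5p. The ratio does not depend on the scaling between libraries, but it was chosen after the values were seen. By the same measure 18 of 79 tested entries (22.8%) lay higher in every siPRDX3 library than in any siCTL library. The part of serum RNA in the level of miR-122-5p was not tested.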

How the data were processed

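Small-RNA libraries from HCT116 exosomes, 3 per group by their titles, were profiled with 1 deposited table of 2588 entries each. The authors deposited log2 values with 3 decimals. Bowtie2 and bedtools 2.25.0 appear in the submitters' processing notes, without their roles. Not given in the sources used here are the build, the miRNA annotation, read filters, strand use, the scaling between libraries and the handling of reads with several matches.

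Each deposited log2 value was turned back into x of log2(x + 1), and reads were recovered by dividing by the smallest step of each library. For 100% of the values of at most 100 reads this gave a whole number, to within 0.1 read. Because values carry 3 decimals, counts are approximate above that, by up to 3.23 reads for miR-122-5p. Recovered reads gave the shares, intervals and the filter.

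An entry was tested with at least 15 reads in all and, in 3 or more libraries, at least 112.6 CPM, the worth of 10 reads at the median library size. The two-sided test was limma-trend (limma 3.58.1, R 4.3.3) without covariates on the authors' log2 values from the 6 libraries. Benjamini-Hochberg adjustment was over the 80 entries, with a threshold of 0.05. The fit was also tested on simulated data with equal library depths. The libraries here differ in depth, so the simulation does not show how the test performs on them. Single measures took exact permutations of libraries (scipy 1.17.1).

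The members and lists were chosen with earlier results of these data known. Named entries are the 4 members, the 5 most alike to miR-122-5p, opposite-strand pairs with at least 100 reads, and the liver and marker lists. Any others were named after their values were seen. Alternatives covered scaling, totals without miR-4451, filter, pseudocount, limma-voom, the replicate block, summed opposite-strand entries and left-out libraries. The series' design text also mentions another siRNA in endothelial cells, and the titles were followed.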

Additional observations from a re-analysis of the deposited data

How the results depend on the processing

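No setting brought miR-122-5p or miR-3591-3p past the threshold. The count of entries passing over the whole table was 0 in all settings except limma-voom with library totals, which called 1 (miR-1260b, adjusted p = 0.0465), and the fits leaving out a library, which gave 0 to 20, with 20 without siCTL 3. Leaving out each library in turn gave log2 fold changes from −0.94 (without siCTL 2) to 1.96 for miR-122-5p and from 0.04 to 1.95 for miR-3591-3p. It gave differences in the share of miR-122-5p from −0.46 (without siPRDX3 2) to 3.14 percentage points, and in the division from −7.11 (without siCTL 2) to 10.7, with −0.91 without siPRDX3 2. With siCTL 1 and siCTL 2 both left out, the fold changes were −1.03 for miR-122-5p and −0.90 for miR-3591-3p, and the share differed by −0.20. On the authors' scaled values, x as deposited, the mean of miR-122-5p differed by −799 (siPRDX3 minus siCTL), against 1.79 percentage points as a share of reads. The cause of these changes of sign was not tested.

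The replicate numbers did not pair the libraries: deviations from the group means correlated at −0.24, 0.18 and 0.14 for numbers 1, 2 and 3. With the replicate number as a block 0 entries passed (7 at an unadjusted p of 0.05, against 6 without it). The fold changes were 0.96 for miR-122-5p and 1.004 for miR-3591-3p, the share differed by 1.79 and the division by 3.12 percentage points. The depth limits miR-122-3p and miR-3591-5p, which had 2 and 7 reads in all.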
